A study of Mus musculus with 8 samples.

Results

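10 members of the Sox family of transcription factors were followed here through H3K27me3 ChIP-seq of mouse embryonic stem cells. H3K27me3 is the repressive histone mark written by Polycomb repressive complex 2. The members were the listed genes Sox1, Sox2, Sox3, Sox5, Sox6, Sox12, Sox13, Sox14, Sox17 and Sox18, and they were found as transcript intervals whose span overlapped the RefSeq gene by at least 0.5 of the union of both spans. This gave 35 of the 50398 intervals of the deposited table and 10 of 20225 named genes. Sox6 held 20 of these intervals, Sox13 and Sox17 held 4 each and the other genes 1 each. The matched Sox6 interval of least overlap (0.580 of the union) had a density of 0.481, and the nearest interval outside the rule, a shorter Sox5 transcript (0.401), had 0.344. Other Sox genes were not analysed here.

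The cells were 2 clones, A and B, of the line E14tg2a (129SV background), and every library came from cells that stably carry cRAF-ErT2, a RAF kinase fusion that 4-hydroxytamoxifen (4OHT) switches on to drive ERK signalling. Before the experiment the serum and LIF medium of all cells held 2 µM of the GSK3 inhibitor Chir99021. This was replaced for the last 24 h by 250 nM of PD173074, which blocks FGF receptors. The 0 h group was left untreated and the 2 h group received 250 nM 4OHT, with 1 H3K27me3 library per clone and time. Column totals of the 4 libraries lay between 70378127 and 92518605 counts.

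SOX proteins bind and bend DNA through an HMG box, and close paralogs form lettered groups that recognise much the same short site. Sox2 works with Oct4 to hold the stem cell state, while most other members act later, in neural tissue, endoderm, vessels, muscle and cartilage. Polycomb complexes commonly hold such lineage regulators silent in stem cells and are recruited to CpG-rich promoters. The listed genes include a known stem cell factor and known lineage regulators.

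The promoters of a pair of genes at opposite ends of the range are shown first, because their CpG content was nearly equal while their H3K27me3 was not. The windows run from 250 bases before to 50 after the start in RefSeq GRCm38.p6 (mm10), 5′ to 3′ on the gene's strand, with each CpG in capitals. Sox14 is at chr9:99876121-99876420 (minus strand) and Sox2 at chr3:34649745-34650044 (plus strand).
Sox14: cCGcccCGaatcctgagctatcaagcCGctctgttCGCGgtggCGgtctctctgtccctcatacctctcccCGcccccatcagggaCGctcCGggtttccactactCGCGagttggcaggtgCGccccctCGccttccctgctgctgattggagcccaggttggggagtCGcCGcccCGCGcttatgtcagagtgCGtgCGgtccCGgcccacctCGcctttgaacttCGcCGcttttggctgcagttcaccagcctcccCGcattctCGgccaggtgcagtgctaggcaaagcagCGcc
Sox2: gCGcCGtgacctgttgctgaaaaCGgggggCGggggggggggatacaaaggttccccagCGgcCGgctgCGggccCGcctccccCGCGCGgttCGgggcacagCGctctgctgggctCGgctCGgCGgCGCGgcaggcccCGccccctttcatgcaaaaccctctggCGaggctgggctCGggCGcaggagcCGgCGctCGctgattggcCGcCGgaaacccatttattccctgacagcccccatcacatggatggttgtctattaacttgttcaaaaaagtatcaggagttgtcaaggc
Sox14 held 26 CpG and Sox2 held 27 in the same 300 bases, against a median of 7 over 32851 listed promoter windows. Windows with at least as many made up 16.9% and 15.5% of all windows.

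The first question was which Sox genes carried the mark. Values are densities, the count per kb of interval per 1000000 counts of the library's column total, and a gene is called marked at 4 times the density of the median gene (0.357) or more, a limit of 1.43. By that limit 6 of the 10 genes were marked, against 5.78% of all named genes. The same 6 passed a limit of 2 times, against 18.9% of named genes, and 4 passed 8 times, against 1.99%. Sox14, Sox18, Sox17, Sox1, Sox13 and Sox3 were above it in that order, and Sox6, Sox5, Sox12 and Sox2 were below. The range from Sox14 to Sox2 was 47.7-fold.

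**Figure D1:**
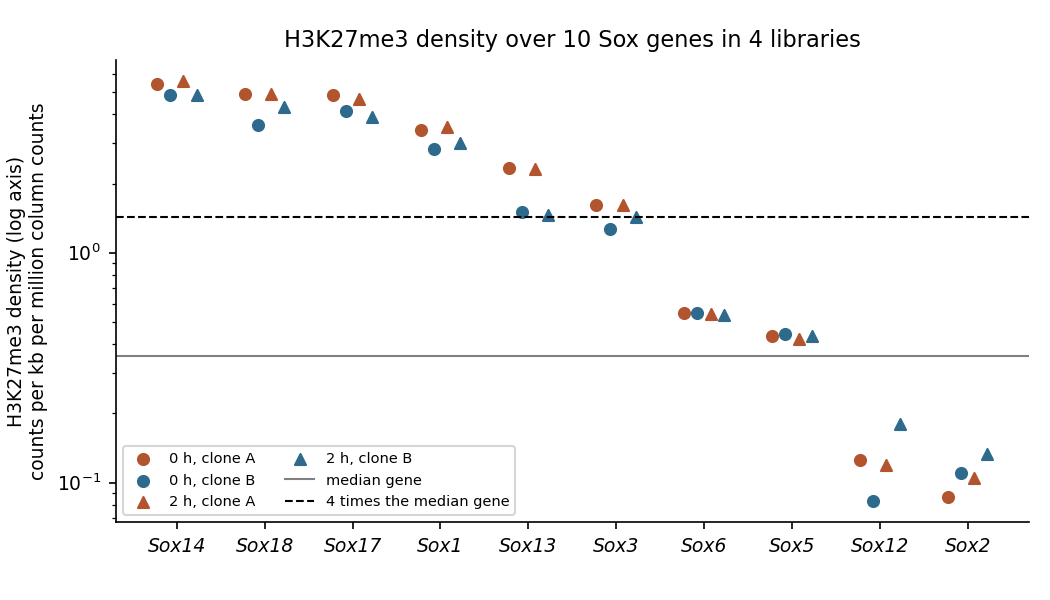
H3K27me3 density (log axis, counts per kb per 1000000 column counts) of the 10 Sox genes in each of the 4 libraries, ordered by mean; circles are 0 h, triangles 2 h, and colours mark the clones. The means of 6 genes are above the dashed line at 1.43, while Sox2 and Sox12 lie below the grey line of the median gene in all 4 libraries.

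In the SoxB1 group, whose members Sox1, Sox2 and Sox3 are expressed in neural progenitors, the paralogs had very different levels. Sox2, which these cells depend on, had 15 counts in clone A and 22 in clone B at 0 h, then 24 and 28 at 2 h. As densities these were 0.0864, 0.110, 0.105 and 0.133, or 0.304 times the median gene. All 4 libraries were low and the times overlapped. The exact 95% Poisson intervals of the counts ran from 8.40 to 24.7 for the lowest library and from 18.6 to 40.5 for the highest, and they cover counting error only.

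Sox1, a neural regulator that marks the onset of neural commitment, had densities of 3.42 and 2.82 at 0 h and 3.54 and 2.99 at 2 h in clones A and B. Both clone A libraries were higher than both clone B libraries, and the times overlapped. Its mean was 8.94 times the median gene and 29.4 times that of Sox2. Sox3, the X-linked member of the group, stood between them at 1.62 and 1.26 at 0 h and 1.61 and 1.43 at 2 h. The clone A libraries were again the higher ones, and the 0 h library of clone B was below the limit of 1.43. At 4.15 times the median gene, Sox3 was only just marked. Densities were not corrected for copy number, and among the 1163 named genes of the X chromosome, of which 1.89% were marked, Sox3 was at percentile 98.3, against 94.5 among all genes.

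Sox14, a SoxB2 gene of brain interneurons that counteracts SoxB1 activity, had the highest density of the Sox genes measured. It measured 5.44 and 4.87 at 0 h and 5.58 and 4.85 at 2 h in clones A and B. This was 14.5 times the median gene and rank 45 of 20225, close to Hoxa9, a well-known Polycomb target named for scale, at 15.3 times. Sox12, a broadly expressed SoxC gene, had 39 counts in clone A and 30 in clone B at 0 h, then 49 and 68 at 2 h. Its densities of 0.125, 0.0832, 0.119 and 0.180 averaged 0.356 times the median gene, and the lowest and the highest library were both of clone B. Its promoter window held 47 CpG, more than any other Sox window listed, and only 1.44% of all windows held as many.

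The SoxF genes Sox17 and Sox18 were both densely marked. Sox17, a regulator of endoderm and of arterial endothelium, measured 4.85 and 4.13 at 0 h and 4.68 and 3.88 at 2 h, or 12.3 times the median gene. Sox18, which acts in blood and lymphatic vessels, measured 4.91 and 3.58 at 0 h and 4.92 and 4.31 at 2 h, or 12.4 times. In both genes the clone A libraries were the higher ones at each time. The ranges of Sox18 and Sox17 over the 4 libraries overlapped, and Sox18 was the higher one in 3 of 4 libraries. Those of Sox14 and Sox18 overlapped too, but within each of the 4 libraries Sox14 was higher.

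The SoxD genes Sox5, Sox6 and Sox13 lack an activation domain of their own, and Sox5 and Sox6 assist Sox9 in cartilage. Over the whole transcript Sox5 measured 0.434, 0.441, 0.420 and 0.434 and Sox6 0.549, 0.544, 0.542 and 0.537 (0 h A, 0 h B, 2 h A, 2 h B). These were 1.21 and 1.52 times the median gene, with little spread between libraries (SD 0.00875 and 0.00517, n = 4). Sox13 stood apart from them at 2.34 and 1.498 at 0 h and 2.32 and 1.46 at 2 h, or 5.34 times the median gene and 4.41 times Sox5. Within Sox13 the clones separated fully and the times did not. Along the order of the 10 genes, the library ranges of Sox13 and Sox3 and of Sox12 and Sox2 also overlapped, while the other 5 neighbouring pairs did not. Within libraries, Sox13 was above Sox3 in 4 of 4 and Sox12 above Sox2 in 3 of 4.

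Interval length differed by orders of magnitude, from 1804 bp for Sox18 to 953565 bp for Sox5, so a mark confined to one end weighs little in a long gene. Sox6 was at percentile 70.0 of all named genes and at 84.3 among those within 2 times of its length, and Sox5 at 59.1 and 73.9. The short marked genes Sox1 and Sox3 were at 98.3 and 94.5 of all genes and at 95.9 and 88.0 among genes of like length. Sox2 and Sox12 stood at 12.9 and 18.0 among genes of like length.

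Sox6 is a long gene with many start sites, and nested intervals that share its 3′ end allowed the counts to be placed along it by subtraction. The dense part lay at the 5′ end. In the 4 parts between 0.251 and 10.1 kb from the 5′ end of the interval that reaches farthest upstream, at position 116041138 (9.86 kb in all), density was 4.36 and 3.97 at 0 h and 4.39 and 3.79 at 2 h in clones A and B. This is 11.6 times the median gene and near the level of Sox17. Over the remaining 557 kb it was 0.494, 0.494, 0.486 and 0.490. The 5′ stretch made up 1.74% of the length and held 12.04% to 13.8% of the counts, a density 7.73 to 9.02 times that of the rest in each library.

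**Figure D2:**
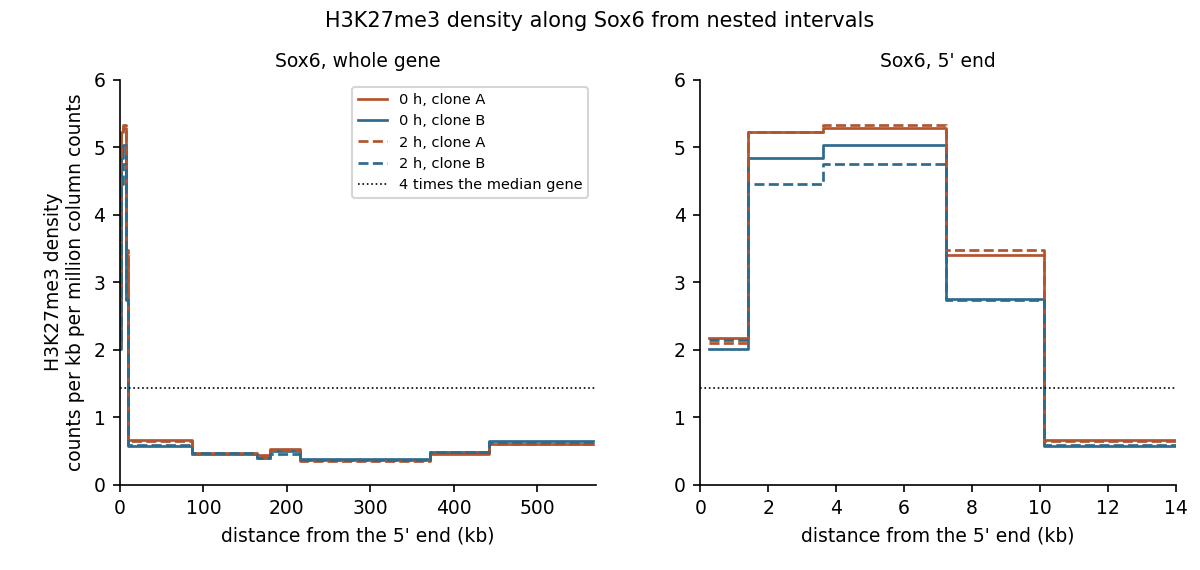
H3K27me3 density (counts per kb per 1000000 column counts) against distance from the 5′ end of Sox6 in kb, for each library, over the whole gene (left) and its first 14 kb (right); each step is a part obtained by subtracting nested intervals. The highest step, 3.61 to 7.22 kb from the 5′ end, lies between 4.74 and 5.33, and all parts beyond 10.1 kb lie below 0.7.

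Within the stretch, density was 2.11 ± 0.0718 (SD, n = 4 libraries) at 0.251 to 1.40 kb, 4.94 ± 0.365 at 1.40 to 3.61 kb, 5.10 ± 0.272 at 3.61 to 7.22 kb and 3.09 ± 0.403 at 7.22 to 10.1 kb. It fell to 0.619 ± 0.0417 in the next 75.6 kb and was lowest, 0.362 ± 0.0106, between 215 and 371 kb. The extent of the stretch was chosen after its values were seen. Sox6os, an antisense transcript of 802 bp inside it (chr7:116031747-116032548, plus strand), measured 3.84, 3.25, 4.205 and 3.24 as an interval of its own. Reads of Sox6os and Sox6 cannot be told apart there.

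Of the 6 Sox6 start windows listed, 2 fell in the dense stretch and 4 outside. One of each is shown to set a start inside the stretch beside one deep in the gene, again with CpG in capitals, at chr7:116038695-116038994 and chr7:115846091-115846390 (both minus strand).
Sox6 start in the dense stretch: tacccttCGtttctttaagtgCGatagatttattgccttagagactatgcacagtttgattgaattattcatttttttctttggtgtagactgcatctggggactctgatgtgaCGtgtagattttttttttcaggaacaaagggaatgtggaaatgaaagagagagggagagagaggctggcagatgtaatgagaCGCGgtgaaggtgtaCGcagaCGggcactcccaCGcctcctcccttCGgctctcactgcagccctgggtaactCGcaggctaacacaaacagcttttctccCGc
Sox6 start deep in the gene: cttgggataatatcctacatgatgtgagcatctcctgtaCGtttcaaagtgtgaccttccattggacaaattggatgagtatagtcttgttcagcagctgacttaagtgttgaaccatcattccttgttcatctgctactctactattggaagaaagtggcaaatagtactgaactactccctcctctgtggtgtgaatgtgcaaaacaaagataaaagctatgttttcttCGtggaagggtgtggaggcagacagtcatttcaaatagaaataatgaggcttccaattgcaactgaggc
The first lies 2.39 kb from the 5′ end, in a part of density 4.94, and held 11 CpG. The second lies 195 kb away, in a part of density 0.494, and held 2. The other start in the stretch held 13 CpG, and the other 3 outside held 2, 2 and 4. CpG was searched as the letters CG, which read the same on both strands. At least 11 CpG were held by 41.4% of all windows, at least 13 by 37.9% and at least 2 by 85.9%.

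CpG content did not order the genes. Sox1 (37 CpG) and Sox13 (40) were marked like Sox14 (26), while Sox12 (47) and Sox2 (27) were not. The listed Sox5 window, the start of a short transcript, held 3 CpG and lay in a part of density 0.355. In all, 12 windows of 7 Sox genes were listed, and these counts are a description of 300 bases each. Over all genes with a single listed window, 2.28% were marked among the 5180 with up to 4 CpG, 5.56% with 5 to 9, 8.07% with 10 to 19, 7.32% with 20 to 29 and 7.27% among the 1555 with 30 or more. The median density was 0.402 in the first of these classes and 0.177 in the last, so a larger share of marked genes did not go with a higher median.

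Sox5 did not show such a step at the resolution available. Its parts between 571 and 954 kb from the 5′ end had mean densities of 0.306 to 0.826, and the highest was a part of 1.91 kb at 576 to 578 kb, 2.31 times the median gene. The 571 kb nearest the 5′ end could not be divided by subtraction and averaged 0.491. Shorter plus-strand intervals inside it measured 0.501 (Sox5os3), 0.366 (Sox5os4) and 0.289 (unnamed, chr6:144211110-144213327). These cover only separate places in the stretch. In Sox13 the 1.49 kb at the 5′ end measured 2.90 ± 0.593 and the remaining 40.4 kb 1.87 ± 0.490 (SD, n = 4), and the former was higher in each library, 1.55 times on average. Sox17 was even, with 4.54 ± 0.604 in the 1.88 kb near the 5′ end and 4.32 ± 0.401 in the other 4.44 kb.

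The intervals around the Sox genes were read next. Sequence between separate intervals was not measured, so the reach of a level is known only where intervals adjoin the gene. Sox2 lies within Sox2ot, a long noncoding transcript (chr3:34560381-34677993), and Sox2ot outside Sox2 measured 0.455, 0.511, 0.456 and 0.480. The gene was thus less dense than its host, which averaged 1.33 times the median gene and was 4.38 times denser. That average covers the whole host outside the gene, so the sequence next to Sox2 was not read separately. Of the nearest intervals, Gm34941, 36916 bp away, was at 1.59 times. Mir1897 (79 bp), 11452 bp away, was at 4.67 times on 8 to 16 counts per library. Sox1 lies in the same way within Sox1ot (chr8:12385771-12436732). Here the gene was the denser one, at 1.67 times the 1.99, 1.80, 2.01 and 1.82 of the rest of Sox1ot, which was itself marked.

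Upstream of Sox3, density fell with distance. It was 1.46 ± 0.165 (SD, n = 4) from 0.333 to 4.87 kb, as over Sox3 itself, then 0.480 ± 0.0223 to 22.01 kb and 0.191 ± 0.0106 to 183 kb. Sox18 (chr2:181669837-181671640) was flanked by Gm29797 at 0.565 times the median gene, 10222 bp away, and by Tcea2 at 3.31 times, 8631 bp away. Sox13 (chr1:133382300-133424212) had Etnk2 at 3.22 times, 1981 bp away. The nearest intervals to Sox17 (chr1:4490931-4497386), 81664 and 85740 bp away, were at 1.17 and 1.43 times, and no other interval lay within 100 kb of Sox14 (chr9:99874106-99876170).

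**Figure D3:**
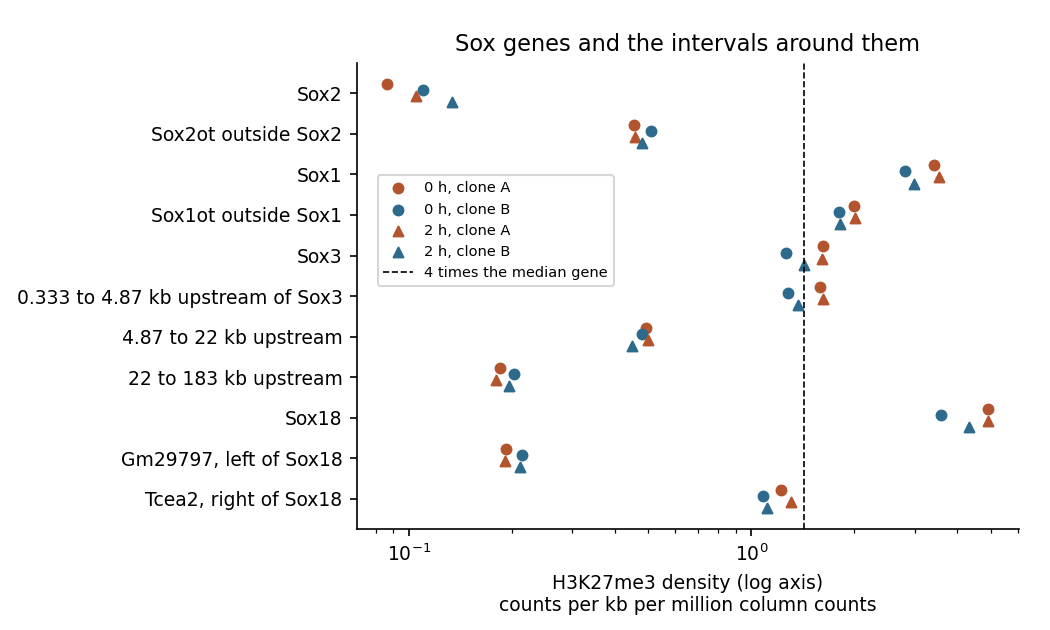
H3K27me3 density (log axis, counts per kb per 1000000 column counts) of Sox2, Sox1, Sox3 and Sox18 and of the host or neighbouring intervals, in each library; symbols as in the plot of the 10 genes, dashed line at 4 times the median gene. Sox2 lies to the left of its host Sox2ot, Sox1 to the right of Sox1ot, and the intervals upstream of Sox3 fall from 1.46 to 0.191 on average.

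Genes that act with or downstream of these factors were read from lists drawn up from general knowledge, with earlier results of these data known. Neural progenitor genes linked to SoxB1 were marked in 13 of 14 measured, against 5.78% of all named genes. Their median was 9.59 times the median gene. Nkx2-2 (11.4 times), a ventral neural tube regulator, and Hes5 (11.3), a Notch target, were densest. Neurod1 (6.29), a neuronal differentiation factor, was the least dense of those marked. Stem cell partners and targets of Sox2 were marked in 0 of 9, which is near the 5.78% of all named genes. Their median was 0.334 times. Lefty1 (3.26), a Nodal inhibitor, and Utf1 (3.07) were highest, and Zfp42 (0.243) and Lin28a (0.236), an RNA-binding protein, lowest.

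The same 5.78% of all named genes stands beside the count of each list below. Endoderm genes linked to Sox17 were marked in 5 of 9, with Foxa2 (10.8 times) and Eomes (6.33) highest and Cer1 (2.10) and Hnf4a (1.56) lowest. Endothelial genes linked to Sox17 and Sox18 were marked in 4 of 10, from Nr2f2 (10.8), a venous fate regulator, and Tal1 (8.09), a blood regulator, to the receptors Flt1 (1.72) and Tek (0.702). Among those marked, Lmo2 had densities of 1.58 and 1.55 in clone A but 1.37 and 1.39, below the limit, in clone B. Cartilage genes linked to Sox5 and Sox6 were marked in 3 of 10. Ihh (10.7), a signal of growth plate cartilage, and Comp (9.15) were highest, and the collagen genes Col11a1 (0.615) and Col10a1 (0.492) lowest.

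The second question was whether switching on the RAF fusion for 2 h altered H3K27me3 over the Sox genes. No change passed the test, which without a block recovered few changes of up to 2-fold in simulated counts. The share was 0% at 1.5-fold, 4% at 2-fold and 60% at 3-fold. The edgeR quasi-likelihood test with Benjamini-Hochberg adjustment called 0 of the 35 Sox intervals, and 0% of all 50037 intervals tested in either direction. At an unadjusted p under 0.05 it found 0 Sox intervals and 188 of all intervals, and DESeq2 called 0. With the replicate block for clone the test called 0 as well, with 1 Sox interval, Sox12, at an unadjusted p under 0.05 (log2 0.53, adjusted p rounded to 1). In the simulated counts the test with this block recovered 78% at 1.5-fold, 92% at 2-fold and 100% at 3-fold, with 8 false calls. The simulated spread was itself taken from the blocked fit.

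For the densest genes the fitted changes were small beside their 95% intervals. The density of Sox14 was 5.16 ± 0.402 (SD, n = 2) before and 5.22 ± 0.519 after 4OHT, a log2 change of 0.02 (95% interval −0.30 to 0.34). Sox18 measured 4.25 ± 0.944 and 4.62 ± 0.432, a change of 0.12 (−0.30 to 0.54), and Sox1 gave 0.06 (−0.30 to 0.43). Sox17 gave −0.07 (−0.41 to 0.27) and Sox3 0.08 (−0.33 to 0.49). For 7 of the 10 genes the interval lay within 1.5-fold either way, and for 8 with clone as a block. Sox2 (0.26, −0.46 to 0.99), Sox12 (0.53, −0.20 to 1.249) and Sox13 (−0.02, −0.66 to 0.62) had wider ones, and the block narrowed that of Sox13 to −0.12 to 0.08. These intervals are not adjusted for the number of genes.

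Direction by clone gave no shared shift. Sox1, Sox2, Sox3 and Sox18 were higher at 2 h in both clones, Sox5, Sox6 and Sox17 lower in both, and the other 3 differed in sign. The 5′ stretch of Sox6 changed by 0.03 in clone A and −0.09 in clone B on the log2 scale, and its antisense interval Sox6os by 0.07 in the test (adjusted p rounded to 1). The 5′ part of Sox13 went from 329 to 488 counts in clone A and from 261 to 346 in clone B. It was higher at 2 h by 0.19 in A and 0.31 in B, against 0.00 and −0.08 in the rest of the gene. This part is no interval of the table, so it was not tested, and it was singled out after its values were seen.

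The list genes gave the same count, with 0 higher and 0 lower of 52 tested, and median log2 changes from −0.01 to 0.05 by list, beside 0.00 over all named genes and 0.04 over the Sox genes.

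**Figure D4:**
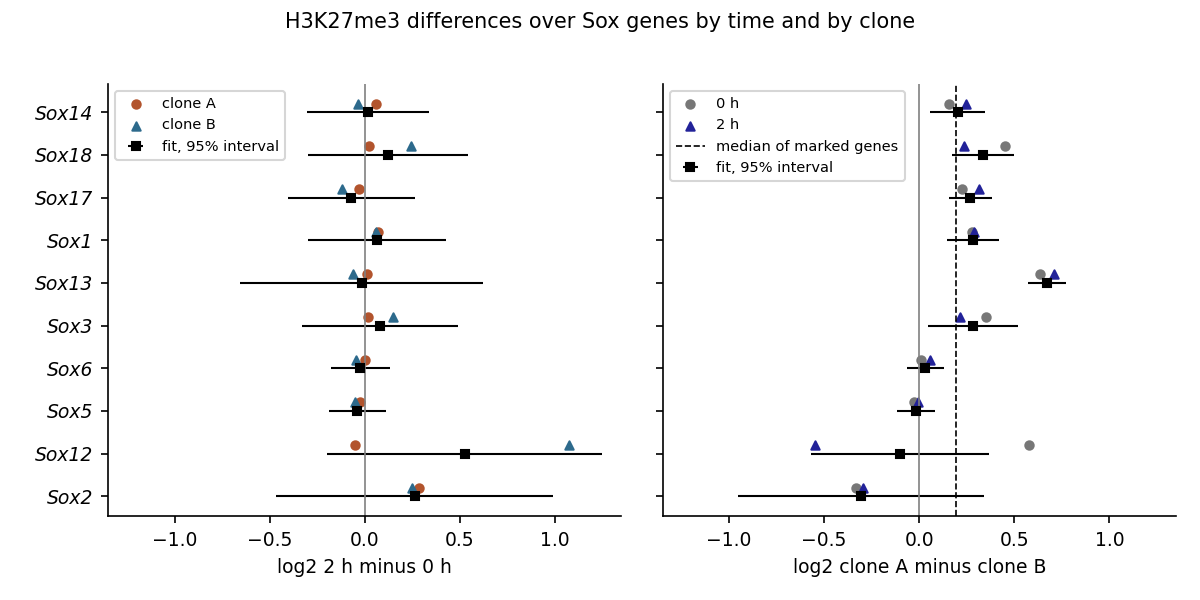
Log2 differences of H3K27me3 for each Sox gene, 2 h minus 0 h (left) and clone A minus clone B (right); squares with bars are fitted values with 95% intervals, and small symbols are the values within each clone (left) or time (right). All time intervals include 0, and Sox13 lies to the right of the dashed line, the median of marked genes at 0.19.

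The clones differed more than the times. In the comparison of clone A with clone B over both times (edgeR, n = 2 libraries per clone), the test called 11 of 35 Sox intervals higher in A and 0 lower, against 17.3% and 10.3% of all intervals. By gene these were Sox1, Sox13, Sox14, Sox17 and Sox18, 5 of the 6 marked members and 5 of the 10 genes, against 15.4% of named genes, while 52.4% of all marked genes were called higher in A. Sox3 missed the threshold (0.28, adjusted p = 0.0681), and Sox5, Sox6, Sox12 and Sox2 gave −0.02, 0.03, −0.10 and −0.31 without a call.

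Sox13 differed most, with 2.33 ± 0.0101 in clone A and 1.48 ± 0.0241 in clone B (SD, n = 2). This was a log2 difference of 0.67 (SE 0.05, adjusted p = 1.74e-36 by edgeR), 0.64 at 0 h and 0.71 at 2 h, and its 4 overlapping intervals gave 0.67 to 0.68. It was higher in A along the gene, by 0.54 and 0.42 in the 5′ part and 0.64 and 0.73 in the rest at 0 h and 2 h. The neighbour Etnk2 was also higher in A, at 0.30 (adjusted p = 1.80e-05). Sox18 gave 0.34, Sox1 0.28, Sox17 0.27 and Sox14 0.20 (adjusted p by edgeR from 4.21e-05 to 0.0277). Without the 2 h library of clone B 6 Sox intervals were called, and Sox17 and Sox14 were not among them. Without the 0 h library of clone B the calls of Sox18 and Sox14 were lost, and that of Sox14 also without the 2 h library of clone A and with DESeq2.

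Marked genes as a whole leaned to clone A, with a median log2 difference of 0.19 over 1160 genes, against −0.00 over all named genes. Set against that median, Sox14 differed by 0.01, Sox17 by 0.07, Sox1 by 0.09, Sox18 by 0.14 and Sox13 by 0.48. Sox13 was at percentile 98.1 of marked genes and the other 4 between 51.7 and 79.5. With scaling factors from marked intervals, chosen after seeing the data, the split was 4 Sox intervals higher in A and 21 lower. The 4 were those of Sox13 (log2 0.46, adjusted p = 8.68e-15 by edgeR) and the 21 those of Sox5 (−0.22) and Sox6 (−0.18), against 5.04% and 43.7% of all intervals. Sox13 was thus the member called higher in A under both scalings, and the calls of Sox1, Sox14, Sox17 and Sox18 were lost under the second. The second scaling centres the clone difference on marked intervals, those of these Sox genes among them. It thus repeats the comparison with the marked median and is no separate check. The clones come from the same line, each with 1 library per time, so the p-values measure the spread between these libraries.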

How the data were processed

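H3K27me3 ChIP-seq was read for 4 of the 8 libraries of the series. Inputs are not analysed here. The values deposited by the authors are raw counts for each transcript interval, per the file headers. Bowtie2, bedtools and mm10 are named per the submitters' processing notes. Versions, read filters and the counting method were not given in the sources used here. A further 12 per-library columns were not used. Chromatin was fixed with 1% formaldehyde for 10 min, per the labels' protocols. Intervals overlap, so column totals are not sequencing depths, and overlapping transcripts share reads.

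Intervals took a gene symbol where overlap over union reached 0.5 and was 0.2 above the next gene, which named 43790 (86.9%), and a gene's value comes from its best interval. Starts were converted to 1-based. Parts of a gene are differences of nested intervals, of at least 1000 bp. The members and lists were chosen with earlier results of these data known. The named genes were all members, their overlapping or neighbouring intervals, and the 2 densest and 2 sparsest of each list. One gene that this rule names is not reported here.

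Tests used edgeR 4.0.16 (quasi-likelihood, TMM, filterByExpr, 50037 intervals, adjusted p under 0.05) in R 4.3.3, with DESeq2 1.42.0 as an alternative. Other alternatives were other scalings and filters, blocks, 1 interval per gene and leaving out each library. With 2 against 2 libraries an exact permutation test cannot go below p = 0.333. Libraries differed beyond counting noise (chi-square per degree of freedom 14.0 and 16.9 between clones, 2.23 and 3.17 between times). The labels sample the same clones at both times, so clone letters pair libraries, which deviated together (r = 0.693 across 42201 intervals averaging 100 counts or more, which are not independent).

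The test scripts were tested on simulated data. Intervals on counts cover counting error only, and p-values measure the spread between these libraries.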

Additional observations from a re-analysis of the deposited data

Results flagged for a closer look

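In 3 Sox genes the sign of the change over 2 h differed by clone. No test of these differences was made, because each clone has 1 library per time. Sox12 gave a log2 change of −0.05 in clone A against 1.07 in clone B, a difference of −1.12 that rests on 30 and 68 counts in clone B. Sox13 gave 0.01 and −0.06 (difference 0.0711), and Sox14 gave 0.06 and −0.03 (difference 0.0906).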

How the results depend on the processing

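No Sox interval was called between 2 h and 0 h under any scaling, filter, tool, threshold, left-out library or the replicate block for clone (0 called). The number of marked Sox genes stayed at 6 except at a limit of 8 times the median gene, where it was 4. Between clones, 11 Sox intervals were called, 5 of 10 with 1 interval per gene, 25 with factors from marked intervals (also with time as a block), and 6 to 11 with 1 library left out. The 6 were without clone B at 2 h, where the Sox17 call was also lost (0.18, adjusted p = 0.0914 by edgeR), and that of Sox18 was lost without clone B at 0 h (0.22, adjusted p = 0.130). Sox14 lost its call in both fits, without clone A at 2 h, and with column totals (0.18) or DESeq2 (0.19). With factors from marked intervals, without and with time as a block, Sox6 turned to −0.18 in both and Sox14 to −0.0083 and −0.0077, and Sox14 over time to −0.026. With 1 library left out, changes over time ran from −0.087 to 0.21 for Sox1, 0.084 to 0.45 for Sox2, −0.094 to 0.26 for Sox3, −0.41 to 0.34 for Sox13, 0.21 to 0.83 for Sox12, −0.11 to 0.11 for Sox14, −0.23 to 0.055 for Sox17 and −0.10 to 0.36 for Sox18. Differences between clones ran from −0.48 to −0.18 for Sox2, −0.069 to 0.0025 for Sox5, −0.019 to 0.048 for Sox6 and −0.54 to 0.53 for Sox12. With 1 library left out, time and clone are no longer balanced. Sox2 and Sox12 had 15 to 68 counts per library, and the exact Poisson intervals of Sox12 in clone B (20.2 to 42.8 at 0 h, 52.8 to 86.2 at 2 h) did not overlap.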

Other observations

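Among the nearest intervals to the Sox genes, several differed between the clones by edgeR on all intervals. Zcchc3, 13909 bp from Sox12, was higher in clone A by a log2 difference of 1.13 (adjusted p = 9.31e-09), with 0.394 as its mean density, near that of the median gene. Sox12 itself was not called. Nrsn2, on its other side, gave 0.31 (adjusted p = 0.0188). Near Sox1, Gm33326 was higher in A (0.47, adjusted p = 4.83e-06) and Gm33175 lower (−0.27, adjusted p = 0.0350), and the host Sox1ot gave 0.18 (adjusted p = 0.00254). Among the list genes, Utf1 gave 1.18 (adjusted p = 2.00e-10), Trh, which encodes thyrotropin-releasing hormone, 0.79 (adjusted p = 7.39e-12), and Cer1, a Nodal inhibitor, −0.51 (adjusted p = 7.82e-04). The list genes were picked for their size after the values were seen.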
